A study of Homo sapiens with 9 samples.

Results

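Transcript levels were examined for 35 genes of glycolysis and of the entry of pyruvate into the mitochondrion, taken by function from a list of symbols, with no threshold on measured values, out of 57905 gene IDs in the deposited count table. Each of the 35 symbols matched 1 Ensembl gene ID. The cells were A549, an established line from a human lung adenocarcinoma, grown in medium with 5% serum. The groups were A549 cells with an shRNA (a hairpin-shaped RNA that lowers a transcript of matching sequence) against AKR1B1 (shAKR1B1, 3 libraries), A549 cells with an shRNA against SORD (shSORD, 3 libraries) and control cells (3 libraries). Control libraries carry the name plko in their titles and are called scrambled in their treatment label, so whether the control vector held a scrambled hairpin is not settled by the labels. The labels give no second hairpin per target, so the effect of a hairpin sequence and that of its target cannot be told apart. They call the libraries biological replicates without saying whether they came from separate transductions, so the spread behind every p-value may be technical.

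Glycolysis splits glucose into pyruvate, first spending ATP to trap and cleave the sugar and then recovering ATP and NADH in the payoff steps. Pyruvate is then reduced to lactate by lactate dehydrogenase, oxidised by the pyruvate dehydrogenase complex or carboxylated to oxaloacetate. Many steps are served by several isoenzymes encoded by separate genes, and carcinoma cells are known for high expression of a particular set of them. AKR1B1 (aldose reductase) and SORD (sorbitol dehydrogenase) form the polyol pathway, a side route that makes fructose from glucose through sorbitol. The series concerns how this route relates to aggressive behaviour of cancer cells, and the comparisons below give the expression of the main route when each enzyme of the side route was lowered.

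Total counts per library ranged from 32436524 to 43044456. Levels are given in CPM, counts scaled to a common library size after TMM normalization. AKR1B1 fell by 3.20 on the log2 scale with shAKR1B1 and by 0.41 with shSORD, and SORD fell by 0.49 with shAKR1B1 and by 2.32 with shSORD. The A549 and epithelial marker list was expressed in full, 7 of 7 genes, with summed levels of 28865 to 29911 CPM in shAKR1B1, 24319 to 25319 CPM in shSORD and 20166 to 20330 CPM in control libraries. All 7 were called higher with shAKR1B1 (median log2 fold change 0.87), where 27.8% of all tested genes were. With shSORD, 6 were called higher and 1 lower (median 0.66), where 27.5% and 29.0% of all tested genes were. CDKN2A, a locus deleted in A549, had at most 0.0613 CPM in any library. The alveolar and airway list, with SFTPC and FOXJ1 just above 10 counts in some library and SFTPB at 0 throughout, summed to 0.469 to 0.551 CPM in shAKR1B1, 0.677 to 0.777 CPM in shSORD and 0.636 to 0.773 CPM in control libraries. Of these, SFTPC was lower with shAKR1B1 than with shSORD (log2 difference -1.06, adjusted p = 0.044). The endothelial list, with no gene above 10 counts and CLDN5 at 0, summed to 0.0696 to 0.184 CPM in shAKR1B1, 0.0975 to 0.207 CPM in shSORD and 0.0509 to 0.239 CPM in control libraries. The fibroblast list (4 of 5 genes above 10 counts in some library) summed to 8.65 to 10 CPM in shAKR1B1, 33.4 to 50.3 CPM in shSORD and 14.4 to 16.1 CPM in control libraries. The fibroblast gene DCN was at or under 0.0975 CPM. With shSORD all 4 tested fibroblast genes were called higher (median log2 fold change 2.82), where 27.5% of all tested genes were. With shAKR1B1, 1 was called higher and 1 lower (median -0.11), where 27.8% and 29.6% of all tested genes were. The part of these shifts in the results below was not tested. In the leukocyte list LYZ alone passed 10 counts and CD3E was at 0, and the list summed to 0.592 to 0.796 CPM in shAKR1B1, 0.1 to 0.293 CPM in shSORD and 0.102 to 0.186 CPM in control libraries. The 1 tested leukocyte gene was called higher in both knockdowns, by 3.91 with shAKR1B1 and 2.34 with shSORD on the log2 scale. RNA came from whole cultures, so fewer cells of a type and less RNA per cell cannot be told apart. Replicates of shSORD varied more than the others, with a chi-square per degree of freedom between libraries of 13.2 to 27.7, against 3.45 to 6.49 for shAKR1B1 and 2.43 to 6.01 for control. The fit used below shares its estimate of spread over all groups, so its p-values and standard errors do not follow this difference.

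Most enzymes of the main route were lower in both knockdowns, by moderate amounts, and a minority of isoforms were higher. A gene was called where its edgeR quasi-likelihood test had an adjusted p under 0.05, and only called genes are described as rising or falling. Of the 35 genes, 33 passed the filter on low counts, and FBP1 and PKLR did not. With shAKR1B1 against control, 19 of the 33 fell, where 29.6% of all 16916 tested genes fell, and 5 rose, where 27.8% of all tested genes rose. The median log2 fold change of the 33 genes was -0.22, beside -0.002 over all tested genes. With shSORD against control, 23 fell, beside 29.0% of all tested genes, and 4 rose, beside 27.5%. The median with shSORD was -0.27, beside -0.002 over all tested genes. The changes were small in fold: HK2 with shSORD was called at a change of at least 2-fold, and no other gene of the list was in either knockdown, while 8.45% of all tested genes rose and 3.93% fell at least 2-fold with shAKR1B1, and 8.02% rose and 3.1% fell at least 2-fold with shSORD.

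**Figure D1:**
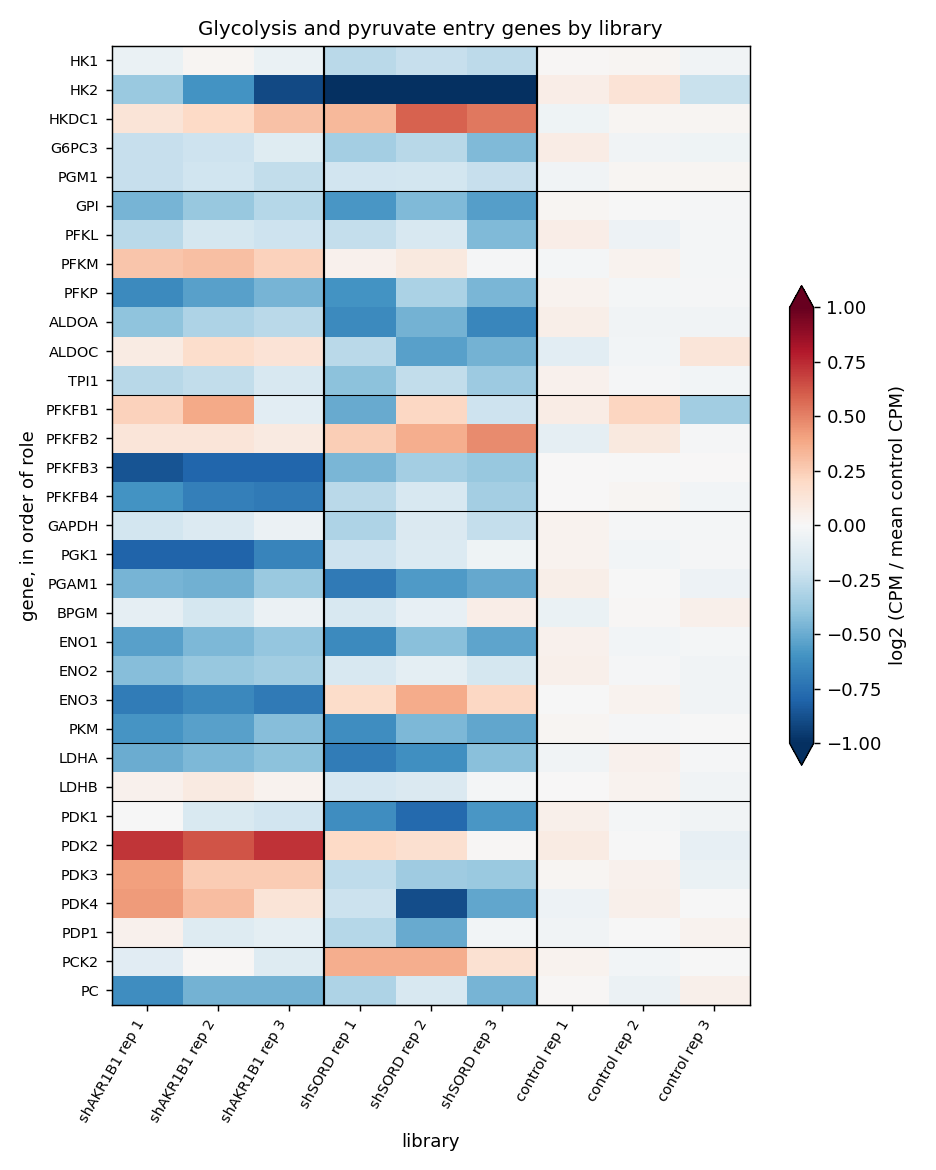
Heat map of the 33 tested genes (rows, in order of their role) in the 9 libraries (columns), coloured by the log2 ratio of the library's CPM to the mean control CPM, with blue for lower and red for higher. Most rows are blue in both knockdowns, among them PKM and LDHA, while HKDC1 is red in all 6 knockdown libraries and ENO3 and PDK3 take opposite colours in shAKR1B1 and shSORD.

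Both comparisons use the same 3 control libraries, so a low or high control level would move both alike, and the calls are given side by side for that reason only. In both knockdowns 17 of the 33 genes fell, beside 21.3% of all tested genes: HK2, GPI, PFKL, PFKP, PFKFB3, PFKFB4, ALDOA, TPI1, GAPDH, PGAM1, ENO1, ENO2, PKM, LDHA, PC, G6PC3 and PGM1. HKDC1 rose in both, as did 19.6% of all tested genes. PFKM and PDK2 rose and PGK1 fell with shAKR1B1 without passing the test with shSORD. PFKFB2 and PCK2 rose and HK1, ALDOC, PDK1 and PDP1 fell with shSORD without passing the test with shAKR1B1. ENO3 fell with shAKR1B1 and rose with shSORD, and PDK3 and PDK4 rose with shAKR1B1 and fell with shSORD. Over all tested genes these opposite patterns were held by 1.08% (lower with shAKR1B1, higher with shSORD) and 0.751% (higher with shAKR1B1, lower with shSORD). PFKFB1, BPGM and LDHB passed in neither.

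**Figure D2:**
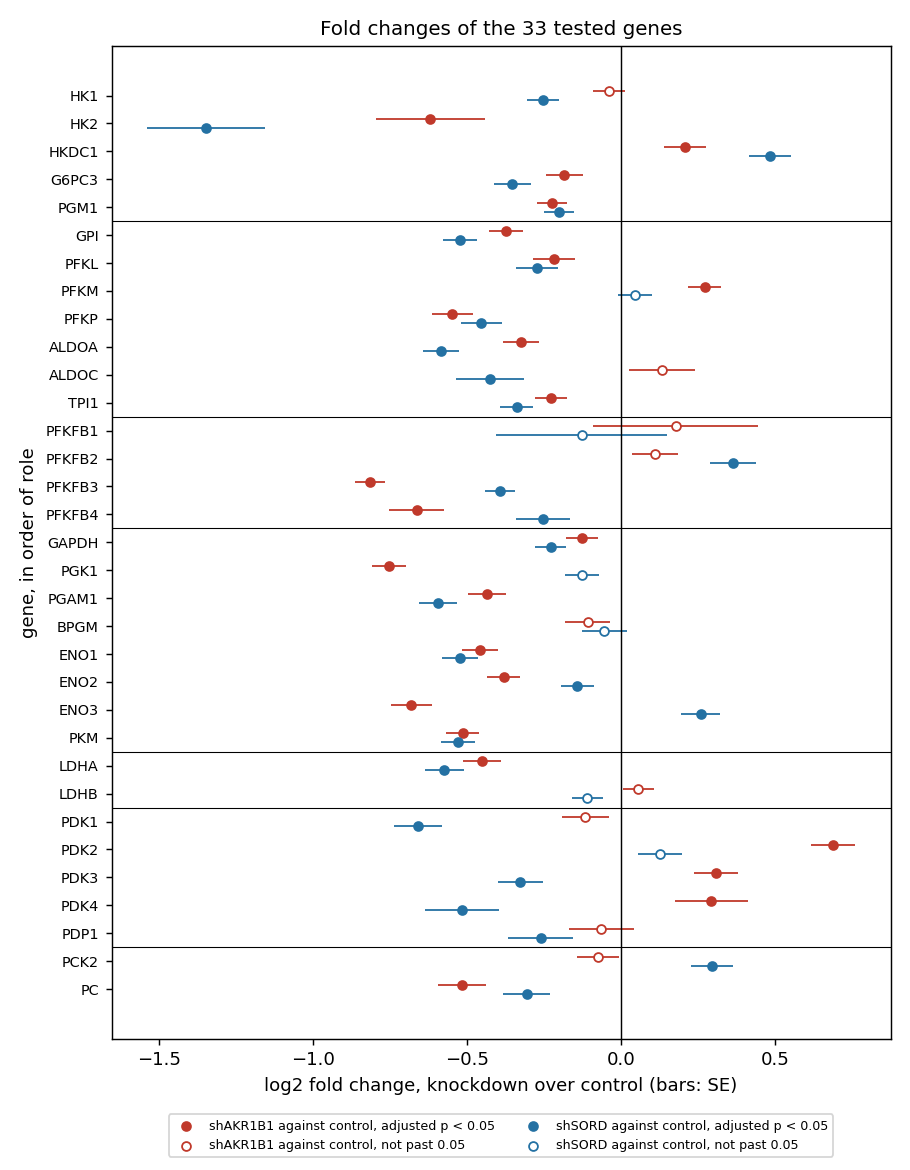
Log2 fold change over control of each tested gene with shAKR1B1 (red) and shSORD (blue), with its standard error as a bar, and filled points for an adjusted p under 0.05. Most points lie left of 0, HK2 with shSORD lies farthest left at -1.35, and PDK2 with shAKR1B1 lies farthest right at 0.69.

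Between genes, levels were compared per kb of transcript. GAPDH was the most abundant of the 35 in every group, at 3453 CPM per kb in shAKR1B1, 3213 in shSORD and 3766 in control cells. PKM and ENO1 followed it in control cells at 1693 ± 18.9 and 1623 ± 43.6 CPM per kb (SD, n = 3). ALDOA (1080 ± 41.4), LDHA (1029 ± 28.9) and TPI1 (994 ± 25.0) came next in control cells, and neighbours among these 3 overlapped between libraries. LDHB stood at 739 ± 18.5 CPM per kb in control cells, followed by GPI (241 ± 2.76), PFKP (226 ± 5.0) and PGK1 (209 ± 5.0). Lowest of the 33 tested genes in control cells were PDK1 (1.33 ± 0.0439), HK2 (0.33 ± 0.0423) and PFKFB1 (0.285 ± 0.0545), with the untested PKLR (0.0181 ± 0.0132) and FBP1 (0) below them. The order shifted within the upper group: LDHA was the fifth of the 35 in control cells, the sixth with shSORD and the seventh with shAKR1B1, behind LDHB. The 35 genes together took 21119 ± 876 CPM in shAKR1B1, 20288 ± 1046 CPM in shSORD and 26439 ± 416 CPM in control cells. As shares of the TMM-scaled library size, which is not the raw total of counts, these were 2.11% in shAKR1B1, 2.03% in shSORD and 2.64% in control cells.

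**Figure D3:**
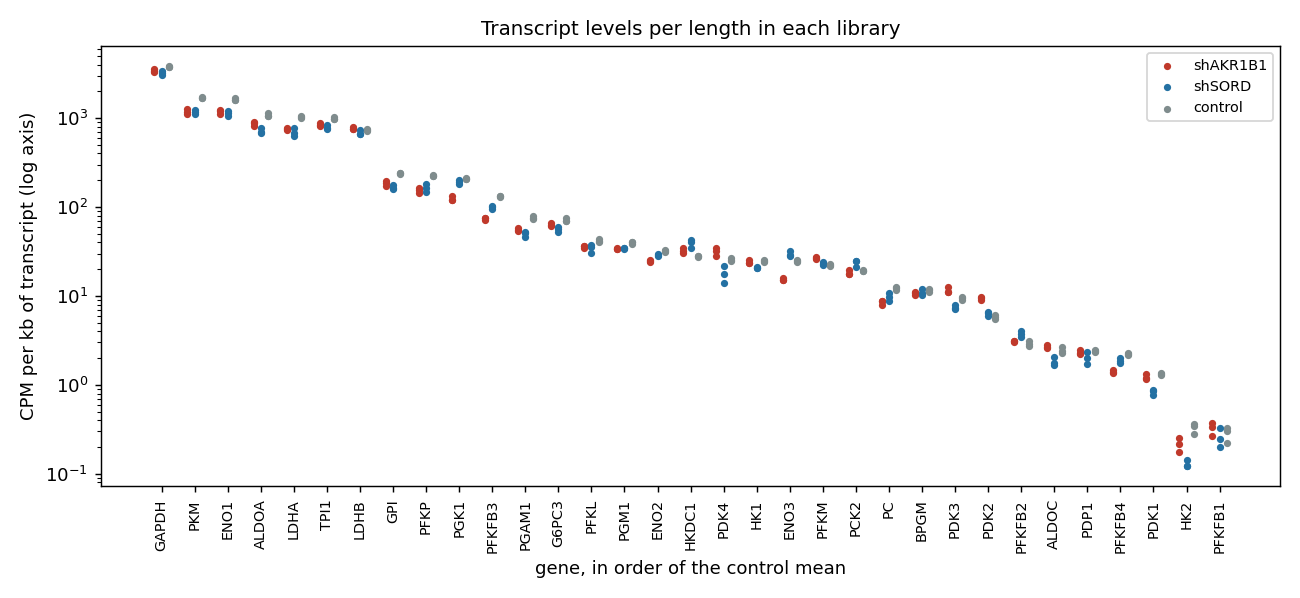
CPM per kb of transcript (log axis) of the 33 tested genes in each library, in order of the control mean, with shAKR1B1 in red, shSORD in blue and control in grey. GAPDH leads at 3766 CPM per kb in control cells, 7 genes lie well above the others in control cells, and the red points of PGK1 and ENO3 lie below their blue and grey points.

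Hexokinase transcripts came mainly from HK1 and HKDC1, HKDC1 rising in both knockdowns and HK1 falling with shSORD. Over the 5 genes of hexose entry the median log2 fold change was -0.18 with shAKR1B1 and -0.26 with shSORD. HK1 (ENSG00000156515), the hexokinase bound to mitochondria in most tissues, was at 85.1, 90.6 and 85.1 CPM in shAKR1B1, 74.0, 76.0 and 74.5 CPM in shSORD and 89.97, 90.7 and 87.2 CPM in control libraries. All shSORD libraries lay below all control libraries, and the shAKR1B1 and control libraries overlapped. HK1 fell with shSORD (log2 fold change -0.26, SE 0.0518, adjusted p = 0.000687) and was at -0.04 with shAKR1B1 (adjusted p = 0.543). HKDC1 (ENSG00000156510), a hexokinase family member found later than the classical isoenzymes, had 113, 119 and 127 CPM with shAKR1B1, 129, 155 and 149 CPM with shSORD and 101, 105 and 105 CPM in control libraries. The 3 groups of HKDC1 values did not overlap. It rose 1.4-fold with shSORD (log2 fold change 0.48, SE 0.068, adjusted p = 2.7e-05) and 1.15-fold with shAKR1B1 (0.21, SE 0.0681, adjusted p = 0.0173). The call with shAKR1B1 ended without shAKR1B1 replicate 3 (0.16, adjusted p = 0.0855) or without control replicate 1 (0.20, adjusted p = 0.0568).

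HK2 (ENSG00000159399), the inducible hexokinase linked to many tumours, was scarce in these cells. Its counts were 48, 51 and 44 in shAKR1B1, 27, 29 and 33 in shSORD and 72, 79 and 64 in control libraries. Scaled for library size, the groups did not overlap, with shSORD lowest and control highest. HK2 fell 2.55-fold with shSORD (log2 fold change -1.35, SE 0.192, adjusted p = 3.11e-05) and 1.54-fold with shAKR1B1 (-0.62, SE 0.178, adjusted p = 0.00793). G6PC3, the widely expressed glucose-6-phosphatase that reverses the hexokinase step, averaged 96.5 ± 4.08 CPM in shAKR1B1, 85.9 ± 5.00 CPM in shSORD and 109.7 ± 5.26 CPM in control cells (SD, n = 3 each). It fell with shSORD (-0.35, adjusted p = 0.000164) and with shAKR1B1 (-0.18, adjusted p = 0.017), the second call being lost without shAKR1B1 replicate 1 (adjusted p = 0.0747), shAKR1B1 replicate 2 (0.0595) or control replicate 1 (0.14). PGM1, which joins glucose-6-phosphate to glycogen by way of glucose-1-phosphate, averaged 83.9 ± 1.46 CPM in shAKR1B1 cells, 85.2 ± 1.47 CPM in shSORD cells and 98.1 ± 1.98 CPM in control cells. PGM1 fell in both (-0.23 with shAKR1B1, adjusted p = 0.0013, and -0.20 with shSORD, adjusted p = 0.00286).

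In the preparatory steps, 5 of the 7 tested genes fell and PFKM rose with shAKR1B1, and 6 of 7 fell with shSORD, at median log2 fold changes of -0.23 with shAKR1B1 and -0.43 with shSORD. Of all tested genes, 29.6% fell and 27.8% rose with shAKR1B1, and 29.0% fell with shSORD. GPI (ENSG00000105220), which interconverts glucose-6-phosphate and fructose-6-phosphate, was at 730.1, 776 and 829 CPM with shAKR1B1, 674, 743 and 689 CPM with shSORD and 1022, 1007 and 999 CPM in control libraries. Every knockdown library lay below every control library. GPI fell 1.3-fold with shAKR1B1 (-0.38, SE 0.0554, adjusted p = 3.93e-05) and 1.44-fold with shSORD (-0.52, SE 0.0554, adjusted p = 1.67e-06). Phosphofructokinase-1, the enzyme of the committed step, is encoded by PFKL, PFKM and PFKP. PFKP (ENSG00000067057), the platelet isoform and the most abundant of the 3 here, had 385, 410.2 and 433 CPM with shAKR1B1, 395, 479.6 and 436 CPM with shSORD and 614, 589.5 and 592 CPM in control libraries. The knockdown libraries overlapped each other and lay below all control libraries, and PFKP fell with shAKR1B1 (-0.55, SE 0.0661, adjusted p = 5.29e-06) and with shSORD (-0.45, SE 0.066, adjusted p = 3.76e-05).

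PFKM (ENSG00000152556), the muscle isoform, went the other way, with 87.2, 88.8 and 84.4 CPM in shAKR1B1, 74.2, 77.1 and 71.2 CPM in shSORD and 71.0, 73.8 and 70.9 CPM in control libraries. The shAKR1B1 libraries lay above the rest, and shSORD overlapped with control. PFKM rose 1.21-fold with shAKR1B1 (0.27, SE 0.0538, adjusted p = 0.000545) and was at 0.04 with shSORD (adjusted p = 0.502). Its exons overlap those of SENP1 on the opposite strand over 8.58% of their length in GENCODE 29, and SENP1 was lower in both knockdowns (-0.27 with shAKR1B1, adjusted p = 0.00883, and -0.45 with shSORD, adjusted p = 0.000215). PFKL, the liver isoform, averaged 104 ± 3.26 CPM in shAKR1B1 cells, 100.4 ± 9.83 CPM in shSORD cells and 121 ± 5.16 CPM in control cells. It fell in both (-0.22 with shAKR1B1, adjusted p = 0.0129, and -0.27 with shSORD, adjusted p = 0.00302), the call with shAKR1B1 being lost without shAKR1B1 replicate 1 (adjusted p = 0.0572) or control replicate 1 (0.0946).

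The cleavage of fructose-1,6-bisphosphate rested on ALDOA (ENSG00000149925), the muscle-type aldolase, at 1311, 1400.4 and 1437 CPM with shAKR1B1, 1117, 1246 and 1099.7 CPM with shSORD and 1808, 1694 and 1693 CPM in control libraries. The 3 groups did not overlap, with shSORD lowest. ALDOA fell 1.25-fold with shAKR1B1 (-0.33, SE 0.0575, adjusted p = 0.000207) and 1.5-fold with shSORD (-0.58, SE 0.0576, adjusted p = 8.17e-07). GENCODE 29 places a second gene over 42.3% of the ALDOA exons on the same strand, and that gene has no row in the deposited count table. ALDOC, the brain-type aldolase, averaged 5.34 ± 0.179 CPM in shAKR1B1 cells, 3.63 ± 0.365 CPM in shSORD cells and 4.86 ± 0.390 CPM in control cells, and was at 0.13 with shAKR1B1 (adjusted p = 0.3) and fell with shSORD (-0.42, adjusted p = 0.0044). TPI1, which interconverts the cleavage products, fell with shAKR1B1 (-0.23, adjusted p = 0.00193) and with shSORD (-0.34, adjusted p = 7.16e-05). FBP1, the fructose bisphosphatase of gluconeogenesis, had 0 counts in 8 libraries and 1 count in shSORD replicate 3. It was not tested.

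The genes that set fructose-2,6-bisphosphate, the allosteric activator of phosphofructokinase-1, were led by PFKFB3, which fell in both knockdowns and further with shAKR1B1. The 4 genes had median log2 fold changes of -0.28 with shAKR1B1 and -0.19 with shSORD. PFKFB3 (ENSG00000170525), whose kinase activity far exceeds its phosphatase activity, was at 324, 340.1 and 340.0 CPM in shAKR1B1, 429, 464 and 452 CPM in shSORD and 589.5, 587 and 590.0 CPM in control libraries. The groups were separated from each other, with shAKR1B1 lowest and control highest. PFKFB3 fell 1.76-fold with shAKR1B1 (log2 fold change -0.81, SE 0.0483, adjusted p = 3.1e-09) and 1.31-fold with shSORD (-0.39, SE 0.048, adjusted p = 6.92e-06). The difference between the knockdowns passed too, with shAKR1B1 lower than shSORD by 0.42 on the log2 scale (adjusted p = 9.05e-06). PFKFB4, another bifunctional isoform, showed 5.30, 4.98 and 4.89 CPM with shAKR1B1, 6.66, 7.17 and 6.32 CPM with shSORD and 8.04, 8.11 and 7.86 CPM in control libraries. It kept the same order of groups without overlap, falling by 0.66 with shAKR1B1 (adjusted p = 1.75e-05) and by 0.25 with shSORD (adjusted p = 0.0227). The shSORD call for PFKFB4 was lost without shSORD replicate 1 (adjusted p = 0.0755), shSORD replicate 3 (0.0872), control replicate 1 (0.0753) or control replicate 2 (0.0661), and with DESeq2 (0.0556). UCN2, a peptide hormone gene that shares 4.73% of the PFKFB4 exons on the same strand, averaged 1.15 ± 0.113 CPM in shAKR1B1, 3.71 ± 0.0242 CPM in shSORD and 3.46 ± 0.616 CPM in control cells, and its part in the PFKFB4 values was not tested.

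PFKFB2 (ENSG00000123836), the heart isoform, did not follow PFKFB3, with 22.3, 22.2 and 21.8 CPM in shAKR1B1, 24.3, 26.4 and 28.4 CPM in shSORD and 19.2, 21.9 and 20.3 CPM in control libraries. The shSORD libraries lay above the others, and shAKR1B1 overlapped with control. PFKFB2 rose with shSORD (0.36, SE 0.0737, adjusted p = 0.000677) and was at 0.11 with shAKR1B1 (adjusted p = 0.219). PFKFB1, the liver isoform, was at 0.388 to 0.715 CPM over all 9 libraries and passed in neither comparison.

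In the payoff steps 7 of 8 tested genes fell with shAKR1B1 and 0 rose, and 5 fell and 1 rose with shSORD, at median log2 fold changes of -0.45 with shAKR1B1 and -0.19 with shSORD. Of all tested genes, 29.6% fell and 27.8% rose with shAKR1B1, and 29.0% fell and 27.5% rose with shSORD. GAPDH, which makes NADH and is often used as a loading control, was at 6219.7, 6430.2 and 6771 CPM with shAKR1B1, 5696, 6376 and 5999 CPM with shSORD and 7232, 7002 and 6951 CPM in control libraries. Control libraries lay above all knockdown libraries by a narrow margin. GAPDH fell by 0.23 with shSORD (adjusted p = 0.00147) and by 0.13 with shAKR1B1 (adjusted p = 0.0483). The shAKR1B1 call was lost without shAKR1B1 replicate 1 or 2, shSORD replicate 1 or 3, or any control library (adjusted p = 0.0656 to 0.218), and under RLE scaling (0.0725) or DESeq2 (0.0898).

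PGK1 (ENSG00000102144), the first ATP-forming step and a textbook target of the hypoxia-inducible factor HIF-1, stood apart between the knockdowns. It had 588, 586 and 645 CPM in shAKR1B1, 885, 929 and 994 CPM in shSORD and 1049.5, 1002 and 1016 CPM in control libraries. The shAKR1B1 libraries lay far below the rest, while the highest shSORD library came close to the lowest control library. PGK1 fell 1.69-fold with shAKR1B1 (log2 fold change -0.75, SE 0.0561, adjusted p = 3.35e-08) and was at -0.13 with shSORD (adjusted p = 0.0639), which passed without shSORD replicate 3 (-0.15, adjusted p = 0.0215). With shAKR1B1 it was lower than with shSORD by 0.63 (SE 0.056, adjusted p = 7.56e-07). PGAM1, the phosphoglycerate mutase, averaged 102 ± 4.38 CPM in shAKR1B1, 91.6 ± 6.28 CPM in shSORD and 138 ± 5.21 CPM in control cells. PGAM1 fell in both (-0.44 with shAKR1B1, adjusted p = 2.18e-05, and -0.59 with shSORD, adjusted p = 1.19e-06). The table also lists 13 PGAM1 pseudogenes, whose counts came to 0.347 to 1.65% of those of PGAM1, and reads could be shared between them, so its values are less certain. BPGM, which makes 2,3-bisphosphoglycerate, was at -0.11 with shAKR1B1 (adjusted p = 0.215) and -0.05 with shSORD (adjusted p = 0.551).

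Of the enolases, ENO1 and ENO2 fell in both knockdowns and ENO3 took opposite directions. ENO1 (ENSG00000074800), the ubiquitous isoform, was at 2612, 2783 and 2912 CPM with shAKR1B1, 2454, 2847 and 2642 CPM with shSORD and 3924, 3738 and 3759 CPM in control libraries. Both knockdowns lay below control and overlapped each other, with a fall of 1.37-fold with shAKR1B1 (-0.46, adjusted p = 8.95e-06) and 1.44-fold with shSORD (-0.52, adjusted p = 2.82e-06). ENO3 (ENSG00000108515), the muscle isoform, was at 23.3, 24.2 and 23.1 CPM with shAKR1B1, 42.8, 48.8 and 43.6 CPM with shSORD and 37.6, 38.6 and 36.9 CPM in control libraries. All shAKR1B1 values lay below, and all shSORD values above, the control values. ENO3 fell 1.6-fold with shAKR1B1 (-0.68, SE 0.0664, adjusted p = 5.88e-07) and rose 1.2-fold with shSORD (0.26, SE 0.0645, adjusted p = 0.00331). Between the knockdowns shAKR1B1 was lower by 0.94 (SE 0.0661, adjusted p = 6.18e-08). The actin-binding PFN1 overlaps 2.59% of the ENO3 exons on the opposite strand and was at 1247 ± 58.8 CPM in shAKR1B1, 1274 ± 120 CPM in shSORD and 1613 ± 61.8 CPM in control cells, lower by 0.37 with shAKR1B1 and by 0.34 with shSORD. The strand setting of the counting is not given in the sources used here, so reads of such partners may not be told apart.

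ENO2, the neuronal isoform, averaged 69.2 ± 1.86 CPM in shAKR1B1, 81.8 ± 2.30 CPM in shSORD and 90.2 ± 2.80 CPM in control cells, and fell by 0.38 with shAKR1B1 (adjusted p = 2.2e-05). Its fall of 0.14 with shSORD (adjusted p = 0.0327) was lost without shAKR1B1 replicate 2, shSORD replicate 1 or 3, or any control library (adjusted p = 0.0501 to 0.19), and under total-count scaling (0.235). PKM (ENSG00000067225), the pyruvate kinase of most adult and tumour tissues, was at 3060.4, 3164 and 3430.2 CPM with shAKR1B1, 2987, 3367 and 3205 CPM with shSORD and 4658, 4564 and 4574 CPM in control libraries. All 6 knockdown libraries lay below the control libraries and the knockdowns overlapped. PKM fell 1.43-fold with shAKR1B1 (-0.52, SE 0.0549, adjusted p = 1.5e-06) and 1.44-fold with shSORD (-0.53, SE 0.0549, adjusted p = 1.36e-06). Gene counts do not separate its splice forms M1 and M2. PKLR, the liver and red cell pyruvate kinase, had 5, 12 and 10 counts with shAKR1B1, 1, 2 and 3 with shSORD and 3, 1 and 1 in control libraries and was not tested in the reported fit.

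At lactate dehydrogenase the A subunit fell in both knockdowns and the B subunit passed the test in neither. LDHA (ENSG00000134333), the subunit that favours pyruvate reduction, was at 1767, 1819 and 1867 CPM in shAKR1B1, 1530.0, 1622 and 1858 CPM in shSORD and 2425, 2562 and 2470.0 CPM in control libraries. Every knockdown library lay below every control library, and the knockdowns overlapped. LDHA fell 1.37-fold with shAKR1B1 (log2 fold change -0.45, SE 0.0624, adjusted p = 2.06e-05) and 1.49-fold with shSORD (-0.57, SE 0.0624, adjusted p = 2.2e-06). LDHB (ENSG00000111716), the subunit of heart-type enzyme, was at 1171, 1211 and 1165 CPM with shAKR1B1, 1013, 1027 and 1119.9 CPM with shSORD and 1139.8, 1164 and 1108 CPM in control libraries. The shAKR1B1 libraries lay just above control and 2 of the 3 shSORD libraries below it. LDHB was at 0.06 with shAKR1B1 (adjusted p = 0.355) and -0.11 with shSORD (adjusted p = 0.0733), the second passing without shSORD replicate 3 (-0.14, adjusted p = 0.0168). A further gene, with no row in the deposited count table, covers 33.4% of the LDHB exons on the same strand in GENCODE 29.

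The upstream sequences of LDHA, LDHB and PGK1 are shown because LDHA and LDHB parted within 1 enzyme and PGK1 parted between the knockdowns. These genes were thus chosen after their values were seen. Each is the run of 250 bases before the gene start in RefSeq on build GRCh38.p14, 5′ to 3′ on the gene's strand, at chr11:18394313-18394562 (plus strand) for LDHA, chr12:21657843-21658092 (minus strand) for LDHB and chrX:78103998-78104247 (plus strand) for PGK1. LDHA has a further annotated start that is not shown. Capitals mark matches on either strand to ACGTG or GCGTG, the core of the hypoxia response element, or to CACGTG, the E-box bound by MYC and by carbohydrate response factors, which holds ACGTG.
LDHA: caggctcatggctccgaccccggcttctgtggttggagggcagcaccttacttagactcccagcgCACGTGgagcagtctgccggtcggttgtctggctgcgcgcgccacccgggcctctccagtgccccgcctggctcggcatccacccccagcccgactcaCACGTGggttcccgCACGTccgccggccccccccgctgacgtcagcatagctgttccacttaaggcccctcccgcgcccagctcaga
LDHB: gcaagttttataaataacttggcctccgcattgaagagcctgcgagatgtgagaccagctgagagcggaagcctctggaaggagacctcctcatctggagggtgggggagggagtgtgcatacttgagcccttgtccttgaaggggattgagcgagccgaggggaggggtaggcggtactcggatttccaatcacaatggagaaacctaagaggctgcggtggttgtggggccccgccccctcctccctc
PGK1: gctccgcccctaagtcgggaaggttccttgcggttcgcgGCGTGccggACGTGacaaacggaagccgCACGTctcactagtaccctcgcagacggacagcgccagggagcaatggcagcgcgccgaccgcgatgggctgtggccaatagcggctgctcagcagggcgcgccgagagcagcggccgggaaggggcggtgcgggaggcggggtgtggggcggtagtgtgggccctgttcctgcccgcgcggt
The LDHA sequence held CACGTG at positions -185 and -87 and a further match to ACGTG at -73, counted from the gene start. That of LDHB held no match in its 250 bases, and that of PGK1 held GCGTG at -211 and ACGTG matches at -202 and -183. In the 50 bases after the start, not printed, each of the 3 held 1 match, GCGTG at 38 in LDHA, GCGTG at 27 in LDHB and ACGTG at 28 in PGK1. A match is a description of letters and shows no binding.

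In the wider set, 33 of the 35 genes had a RefSeq promoter window of 250 bases before and 50 after a start, with 66 windows in all. ACGTG, on either strand and including its matches inside CACGTG, was held by 39.4% of these windows, against 21.4% of all 35116 windows in the table. Counted by gene, 20 of 33 (60.6%) held it in some window, against 24.9% of all 27305 genes, but the 33 genes had 2.0 windows each, against 1.29 for all genes. Of the 17 genes that fell in both knockdowns, PFKL, PFKFB4, PGAM1, ENO1 and PKM held no ACGTG in any window, and the others held it. Of the genes that rose with shAKR1B1, PFKM, PDK3 and PDK2 held ACGTG, in PDK2 inside CACGTG, and HKDC1 and PDK4 did not. Of those that rose with shSORD, HKDC1, ENO3 and PCK2 held none, and PFKFB2 had no window. A link between these matches and the changes was not tested. CACGTG was held by 16.7% of the windows, against 7.26% of all, and by gene by 27.3%, against 8.77% of all genes. GCGTG was held by 33.3% of the windows, against 36.5% of all. Counted by gene, GCGTG went the other way, held by 19 of 33 (57.6%), against 40.6% of all genes, under the same difference in windows per gene.

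Of the genes for the switch on the pyruvate dehydrogenase complex, PDK3 and PDK4 were called in opposite directions in the knockdowns. The kinases PDK1 to PDK4 phosphorylate and inhibit the complex, and the phosphatase PDP1 restores it. With shAKR1B1, 3 of the 5 genes rose and 0 fell, and with shSORD 4 of 5 fell and 0 rose, at medians of 0.29 with shAKR1B1 and -0.33 with shSORD. PDK4 (ENSG00000004799), a kinase induced by fasting in many tissues, was at 123, 113 and 100.1 CPM with shAKR1B1, 78.5, 49.5 and 63.6 CPM with shSORD and 88.4, 94.8 and 90.9 CPM in control libraries. The groups did not overlap, and shSORD replicate 2 was the lowest. PDK4 rose 1.23-fold with shAKR1B1 (log2 fold change 0.29, SE 0.119, adjusted p = 0.047) and fell 1.43-fold with shSORD (-0.52, SE 0.12, adjusted p = 0.00198). The rise was not called without shAKR1B1 replicate 1 (0.22, adjusted p = 0.179), shAKR1B1 replicate 2 (0.0982) or control replicate 1 (0.0991), 2 (0.0726) or 3 (0.104). Between the knockdowns shAKR1B1 was higher by 0.81 (SE 0.12, adjusted p = 0.000114).

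PDK3 (ENSG00000067992), a kinase first known from testis, was at 23.95, 21.4 and 21.5 CPM with shAKR1B1, 15.1, 14.0 and 13.9 CPM with shSORD and 18.2, 18.6 and 17.2 CPM in control libraries. It showed the same order of groups as PDK4 without overlap. PDK3 rose with shAKR1B1 (0.31, SE 0.0714, adjusted p = 0.00193), fell with shSORD (-0.33, SE 0.0731, adjusted p = 0.00143) and differed between them by 0.64 (adjusted p = 8.77e-06). PDK2 (ENSG00000005882), the most widely expressed isoform, was at 32.8, 31.0 and 33.2 CPM with shAKR1B1, 23.0, 22.4 and 20.2 CPM with shSORD and 21.2, 20.02 and 19.0 CPM in control libraries. The shAKR1B1 libraries lay above all others, and shSORD overlapped with control. PDK2 rose 1.61-fold with shAKR1B1 (0.69, SE 0.071, adjusted p = 1.05e-06), the largest rise among the 33 genes, and was at 0.13 with shSORD (adjusted p = 0.151), which passed without shSORD replicate 3 (0.20, adjusted p = 0.0172). SAMD14 lies over 38.6% of the PDK2 exons on the opposite strand but was itself at 0.241 to 0.442 CPM on average.

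PDK1 (ENSG00000152256), the isoform best known as a HIF-1 target, was at 18.7, 17.0 and 16.5 CPM with shAKR1B1, 12.2, 11 and 12.6 CPM with shSORD and 19.6, 18.6 and 18.4 CPM in control libraries. The shSORD libraries lay below all others, and shAKR1B1 replicate 1 lay within the control range. PDK1 fell 1.58-fold with shSORD (-0.66, SE 0.0775, adjusted p = 4.75e-06) and was at -0.12 with shAKR1B1 (adjusted p = 0.205). PDP1 averaged 9.91 ± 0.631 CPM in shAKR1B1 cells, 8.63 ± 1.43 CPM in shSORD cells and 10.3 ± 0.240 CPM in control cells. Its fall with shSORD (-0.26, adjusted p = 0.0472) was lost without any 1 of the 9 libraries other than shSORD replicate 3 (adjusted p = 0.0554 to 0.178) and under DESeq2 (0.0568), and the value without shSORD replicate 2 was -0.15.

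**Figure D4:**
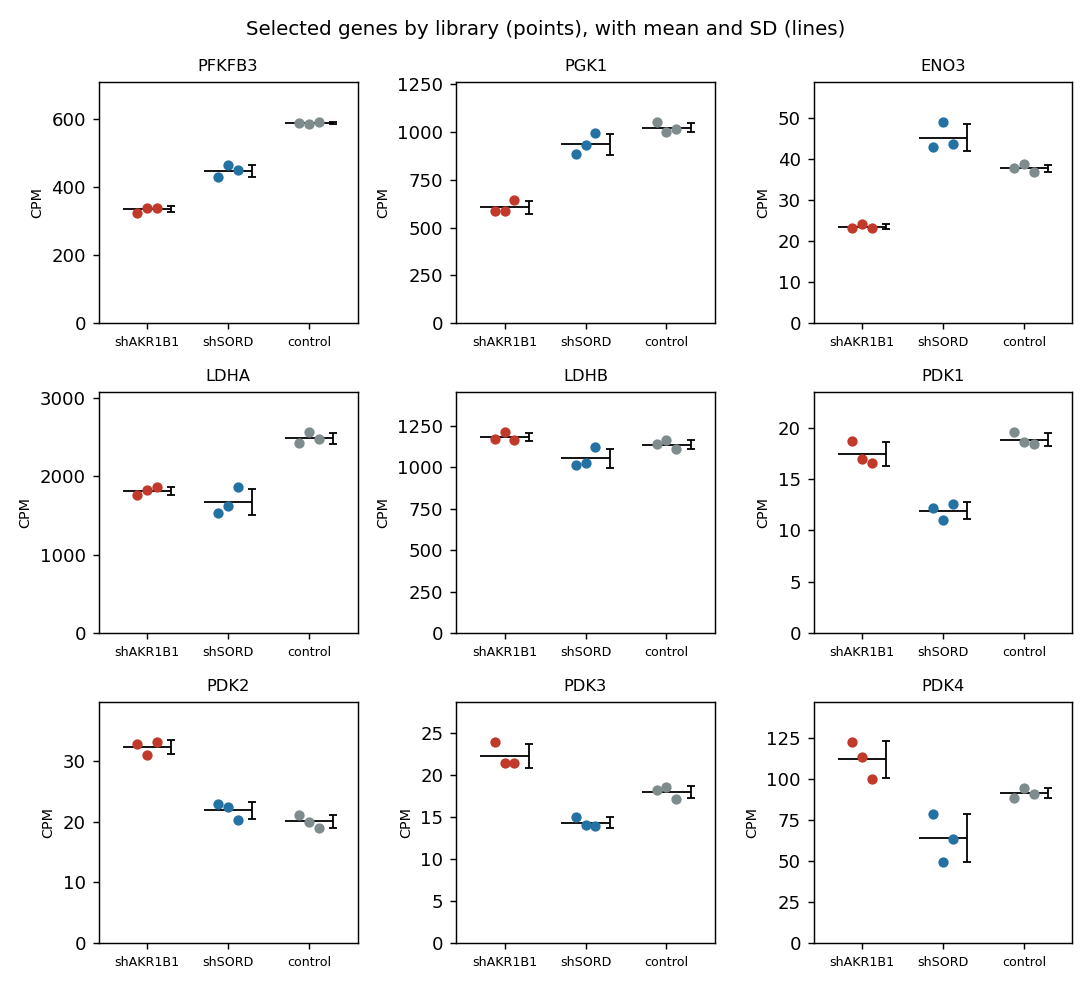
CPM of 9 genes by library (points) with the group mean (long line) and SD (bar) for shAKR1B1, shSORD and control, each panel starting at 0. PFKFB3 steps up across the 3 groups, PGK1 and ENO3 are lowest with shAKR1B1, LDHA is low in both knockdowns beside a nearly level LDHB, and PDK3 and PDK4 are high with shAKR1B1 and low with shSORD.

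On the anaplerotic side, PC (ENSG00000173599), which carboxylates pyruvate to oxaloacetate, was at 32.96, 36.6 and 36.6 CPM in shAKR1B1, 40.9, 45.4 and 36.8 CPM in shSORD and 51.0, 48.6 and 52.4 CPM in control libraries. Both knockdowns lay below control. PC fell with shAKR1B1 (-0.52, SE 0.077, adjusted p = 4.23e-05) and with shSORD (-0.31, SE 0.0765, adjusted p = 0.0033). LRFN4 covers 10.5% of the PC exons on the opposite strand, and was lower with shAKR1B1 (-0.74, adjusted p = 4.24e-06) and at 0.03 with shSORD (adjusted p = 0.76). PCK2, the mitochondrial enzyme that makes phosphoenolpyruvate from oxaloacetate, was at 42.1, 45.7 and 41.6 CPM with shAKR1B1, 58.3, 58.5 and 50.4 CPM with shSORD and 46.4, 44.6 and 45.2 CPM in control libraries. The shSORD libraries lay above all others. PCK2 rose with shSORD (0.30, SE 0.0684, adjusted p = 0.00187) and was at -0.07 with shAKR1B1 (adjusted p = 0.37).

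Isoform choice within a family was described as the share of the family's CPM per kb, and as the ratio of counts of an isoform pair, tested with an exact two-sided permutation test over 3 against 3 libraries. The smallest p this test allows is 0.1, so no ratio could pass, and after adjustment over 24 tests that value is 0.109. LDHA made up 49.5 ± 0.906% of lactate dehydrogenase transcripts with shAKR1B1, 50.2 ± 1.18% with shSORD and 58.2 ± 0.591% in control cells (SD, n = 3 each). The ratio of LDHA to LDHB counts was 1.51, 1.5 and 1.6 with shAKR1B1, 1.51, 1.58 and 1.66 with shSORD and 2.13, 2.2 and 2.23 in control libraries. Its log2 was lower by 0.51 with shAKR1B1 and by 0.47 with shSORD (exact p = 0.1 for each), and neither knockdown overlapped with control. HKDC1 made up 57.1 ± 1.77% of hexokinase transcripts with shAKR1B1, 65.2 ± 1.94% with shSORD and 52.7 ± 0.907% in control cells, with HK2 under 1% in every library. The log2 ratio of HKDC1 to HK1 counts was higher by 0.25 with shAKR1B1 and by 0.74 with shSORD (exact p = 0.1 for each).

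Among phosphofructokinase-1 transcripts, PFKP held 71.0 ± 1.19% with shAKR1B1, 74.1 ± 2.00% with shSORD and 77.9 ± 0.0222% in control cells. PFKM took 12.4 ± 0.744% with shAKR1B1, 10.4 ± 0.635% with shSORD and 7.71 ± 0.305% in control cells. The log2 ratio of PFKM to PFKL counts was higher by 0.49 with shAKR1B1 and by 0.32 with shSORD (exact p = 0.1 for each), and that of PFKP to PFKL with shSORD overlapped with control (exact p = 0.2). PFKFB3 was the dominant isoform of its family at 93.9 ± 0.292% with shAKR1B1, 94.5 ± 0.104% with shSORD and 96.0 ± 0.181% in control cells. PFKFB2 took 3.92 ± 0.133% with shAKR1B1, 3.51 ± 0.207% with shSORD and 2.11 ± 0.140% in control cells, a log2 ratio of PFKFB2 to PFKFB3 counts higher by 0.93 with shAKR1B1 and 0.76 with shSORD (exact p = 0.1 for each). ENO3 took 1.27 ± 0.0759% of enolase transcripts with shAKR1B1, 2.5 ± 0.0651% with shSORD and 1.48 ± 0.0561% in control cells, beside ENO1 at 95.1% or more on average.

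Of the 4 kinases, PDK4 took 58.4 ± 2.07% with shAKR1B1, 54.5 ± 5.22% with shSORD and 60.7 ± 1.30% in control cells. PDK2 took 17.6 ± 1.46% with shAKR1B1, 19.8 ± 2.72% with shSORD and 13.9 ± 0.777% in control cells. The PDK2 share was higher in every knockdown library than in any control library, with PDK2 itself rising with shAKR1B1 and the other 3 kinases falling with shSORD. The log2 ratio of PDK1 to PDK2 counts was lower by 0.81 with shAKR1B1 and by 0.79 with shSORD (exact p = 0.1 for each). The share of PDK1, 2.29 ± 0.0394% with shAKR1B1, 2.61 ± 0.261% with shSORD and 3.16 ± 0.137% in control cells, depends on the length of its long principal transcript. For aldolase the ratio of ALDOC to ALDOA counts overlapped between shSORD and control (exact p = 0.4).

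**Figure D5:**
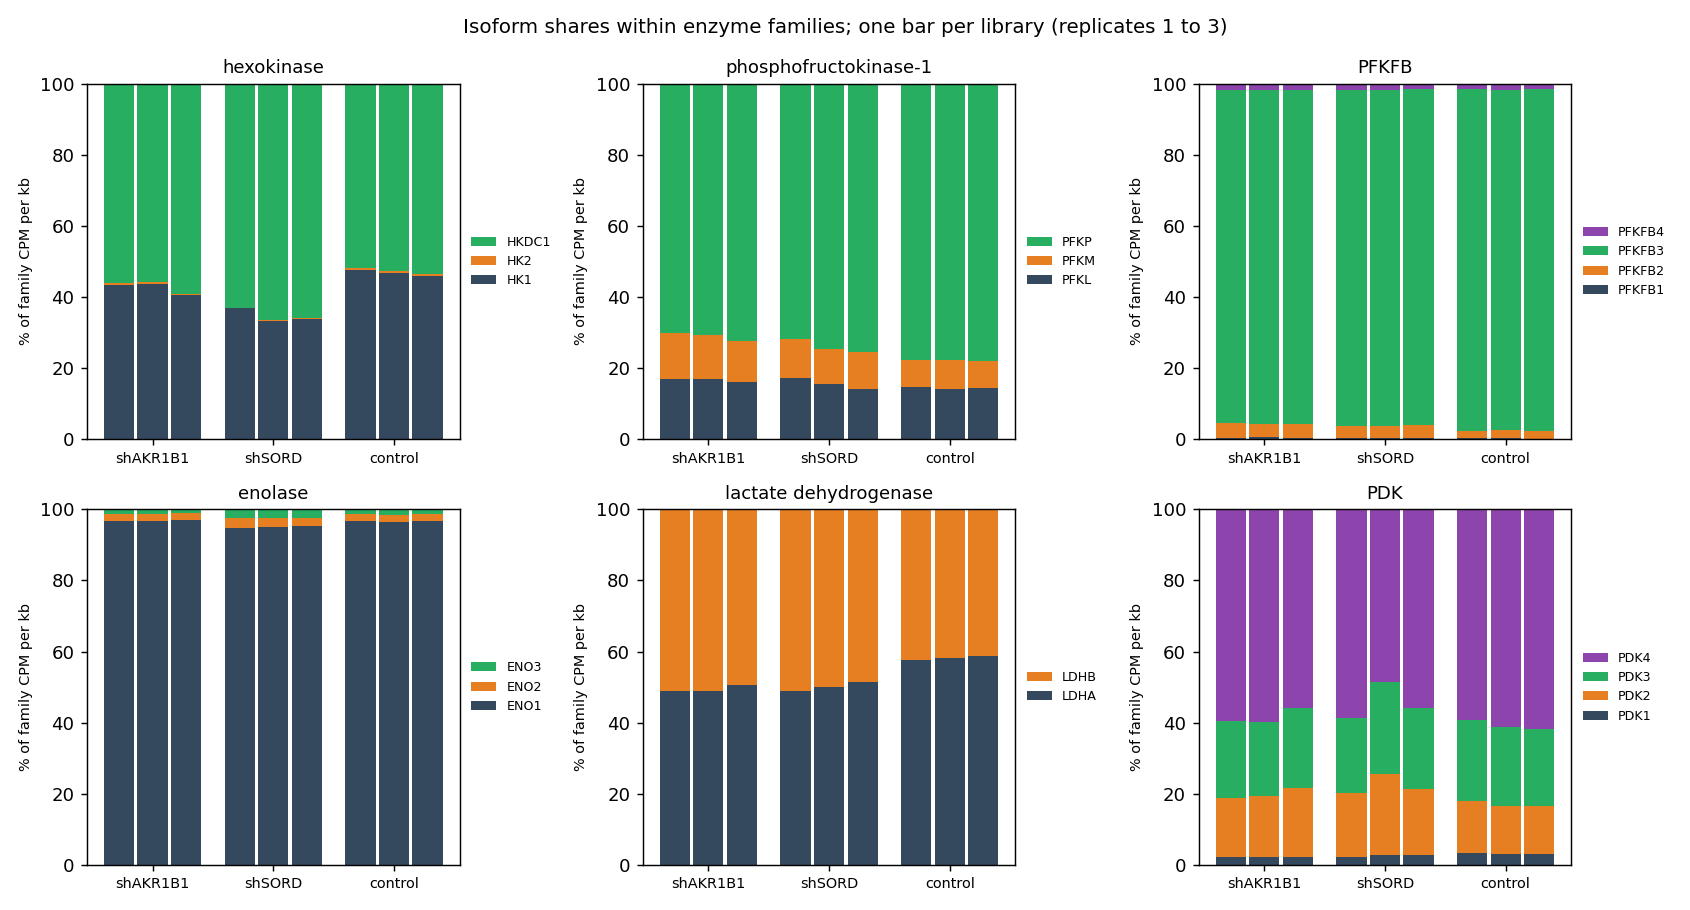
Share of each isoform in the CPM per kb of its family (stacked bars, 0 to 100%), with 1 bar per library for shAKR1B1, shSORD and control. LDHA takes near 50% in the knockdown libraries and 58.2% on average in control libraries, HKDC1 widens most with shSORD, and PFKM widens most with shAKR1B1.

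Setting the knockdowns against each other directly, 11 of the 33 genes were higher and 8 lower with shAKR1B1 than with shSORD, beside 15.5% and 15.1% of all tested genes, and 14 did not pass. The median difference was 0.11, beside 0.01 over all tested genes, and 0 of the 33 differed at least 2-fold, beside 2.47% higher and 2.72% lower of all tested genes. Higher with shAKR1B1 were HK1, HK2, G6PC3, PFKM, ALDOA, ALDOC, LDHB and PDK1 to PDK4. Lower were HKDC1, PFKFB2, PFKFB3, PFKFB4, PGK1, ENO2, ENO3 and PCK2. The largest of these differences were in ENO3 (-0.94) and PDK4 (0.81), followed by HK2 (0.73, adjusted p = 0.0139), which was not called without shAKR1B1 replicate 1 (0.61, adjusted p = 0.0667). PDK1 was higher by 0.54 (SE 0.0778, adjusted p = 8.03e-05), PDK2 by 0.56 (adjusted p = 2.19e-05) and ALDOC by 0.56 (adjusted p = 0.00122).

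Several abundant enzymes differed little between the knockdowns. For PKM the difference was 0.01 (SE 0.0548), for ENO1 0.07 (SE 0.0582), for PGM1 -0.02 (SE 0.0497) and for TPI1 0.11 (SE 0.0528), none past the test. TPI1 (adjusted p = 0.125), GAPDH (0.10, adjusted p = 0.142) and PGAM1 (0.16, adjusted p = 0.0626) passed without shSORD replicate 2 (adjusted p = 0.0218, 0.0347 and 0.047), and LDHA (0.12, adjusted p = 0.155), PGAM1 and PDP1 (0.20, adjusted p = 0.179) without shSORD replicate 3 (0.00429, 0.0159 and 0.00921). Same-numbered libraries of the knockdowns deviated together, and with the number as a block GPI (0.15, adjusted p = 0.0536 without the block) and PC (-0.21, adjusted p = 0.0504 without it) passed (0.0407 and 0.0435). GPI also passed without shAKR1B1 replicate 1 (0.0336) or shSORD replicate 2 (0.0113), and PC without shSORD replicate 3 (0.00294). The calls of LDHB (0.17, adjusted p = 0.0204), G6PC3 (0.17, adjusted p = 0.0465) and PFKFB2 (-0.25, adjusted p = 0.0164) were lost without single libraries: LDHB without shAKR1B1 replicate 1 or 2 or shSORD replicate 1 (0.054, 0.0877 and 0.0644), PFKFB2 without shAKR1B1 replicate 3 (0.0588), and G6PC3 without any 1 library other than shSORD replicate 2 (0.0618 to 0.176).

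Around the core route, glucose transporters and monocarboxylate transporters were read from the same fit. The counts in these short lists are descriptions, to be set beside all tested genes, for which the shares higher and lower were 27.8% and 29.6% with shAKR1B1 and 27.5% and 29.0% with shSORD, at a median of -0.002 in both. Of 6 tested glucose transporters, 1 rose and 3 fell in each knockdown (median log2 fold change -0.30 with shAKR1B1 and -0.35 with shSORD), and SLC2A6 and SLC2A8, transporters of internal membranes, fell in both (SLC2A6 by 0.95 with shAKR1B1 and 0.54 with shSORD, SLC2A8 by 0.59 with shAKR1B1 and 0.49 with shSORD). SLC2A1, the main carrier of glucose into carcinoma cells, and SLC2A3, the high-affinity carrier known from neurons, are named here after their values were seen. SLC2A1 fell with shAKR1B1 (-0.69, adjusted p = 2.87e-07) and was at 0.12 with shSORD (adjusted p = 0.109). SLC2A3 was at -0.01 with shAKR1B1 (adjusted p = 0.876) and rose 2.17-fold with shSORD (adjusted p = 9.02e-10). Of 7 genes of lactate and pyruvate transport, 2 rose and 4 fell with shAKR1B1, and 0 rose and 3 fell with shSORD (median log2 fold change -0.20 with shAKR1B1 and -0.12 with shSORD). The lactate exporter SLC16A3 fell by 0.65 with shAKR1B1 (adjusted p = 1.38e-06) and by 0.37 with shSORD (adjusted p = 0.000323), SLC16A1 by 0.28 with shAKR1B1 and 0.41 with shSORD, and SLC16A7 by 0.74 with shAKR1B1 and 0.99 with shSORD. Of 7 genes of the pyruvate dehydrogenase complex and its other regulators, 0 rose and 3 fell with shAKR1B1, and 0 rose and 5 fell with shSORD (median log2 fold change -0.09 with shAKR1B1 and -0.27 with shSORD). The core subunit DLAT fell by 0.37 with shAKR1B1 and 0.53 with shSORD, the binding protein PDHX by 0.18 with shAKR1B1 and 0.29 with shSORD, and the phosphatase PDP2 by 0.46 with shAKR1B1 and 0.28 with shSORD.

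Side routes held calls in both directions. Of 8 pentose phosphate genes, 1 rose and 1 fell with shAKR1B1 and 0 rose and 2 fell with shSORD (median log2 fold change 0.08 with shAKR1B1 and 0.00 with shSORD), RPIA, the ribose-5-phosphate isomerase, falling by 0.24 with shAKR1B1 and 0.26 with shSORD. Of 8 genes leading to serine and glycerol, 2 rose and 3 fell with shAKR1B1, and 1 rose and 4 fell with shSORD (median log2 fold change -0.14 with shAKR1B1 and -0.17 with shSORD). PSAT1, the transaminase of serine synthesis, fell by 1.03 with shAKR1B1 (adjusted p = 5.27e-07) and 0.96 with shSORD (adjusted p = 1.33e-06), SHMT2, which passes serine carbon to folate in mitochondria, fell by 0.54 with shAKR1B1 and 0.40 with shSORD, and the glycerol-3-phosphate dehydrogenase GPD1 rose by 1.41 with shAKR1B1 and 0.83 with shSORD. Of 12 glycogen genes, 6 rose in each knockdown, 3 fell with shAKR1B1 and 2 with shSORD (median log2 fold change 0.16 with shAKR1B1 and 0.14 with shSORD). The glycogen-targeting phosphatase subunits PPP1R3B (0.79 with shAKR1B1 and 1.04 with shSORD) and PPP1R3C (1.05 with shAKR1B1 and 0.55 with shSORD) and the phosphorylase kinase subunit PHKB (0.20 with shAKR1B1 and 0.24 with shSORD) rose in both. Of 7 genes of fructose and polyol entry, 3 rose and 3 fell with shAKR1B1, and 1 rose and 4 fell with shSORD (median log2 fold change 0.03 with shAKR1B1 and -0.18 with shSORD), the targeted AKR1B1 and SORD among those that fell and GLYCTK, a glycerate kinase, rising by 1.28 with shAKR1B1 and 1.18 with shSORD. Of 8 tested further isoforms, 4 rose and 2 fell with shAKR1B1 and 5 rose and 1 fell with shSORD (median log2 fold change 0.22 with shAKR1B1 and 0.44 with shSORD). GCKR, the glucokinase regulator, rose by 2.51 with shAKR1B1 and 1.62 with shSORD and LDHD, the D-lactate dehydrogenase, by 1.09 with shAKR1B1 and 0.69 with shSORD. PCK1, the cytosolic counterpart of PCK2, rose by 1.68 with shAKR1B1 and 1.60 with shSORD and stayed at or under 0.326 CPM.

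Known regulators and hypoxia genes outside glycolysis were called in both directions, and the same shares of all tested genes apply (27.8% higher and 29.6% lower with shAKR1B1, 27.5% higher and 29.0% lower with shSORD). Of 16 hypoxia response genes, 6 rose and 5 fell with shAKR1B1, and 5 rose and 6 fell with shSORD (median log2 fold change -0.08 with shAKR1B1 and -0.01 with shSORD). NDRG1 rose by 1.21 with shAKR1B1 (adjusted p = 5.28e-11) and 1.16 with shSORD (adjusted p = 1.38e-10), the carbonic anhydrase CA9 rose by 1.69 with shAKR1B1 and 0.53 with shSORD, and the peptide hormone ADM fell by 0.47 with shAKR1B1 and 0.43 with shSORD. Of 19 tested regulators of glycolytic genes, 7 rose and 7 fell with shAKR1B1, and 7 rose and 9 fell with shSORD (median log2 fold change -0.05 with shAKR1B1 and 0.08 with shSORD). The fatty acid receptor PPARA rose by 1.52 with shAKR1B1 and 1.25 with shSORD, the carbohydrate response factor MLXIPL by 0.93 with shAKR1B1 and 1.00 with shSORD, and ARRDC4, a known target of such factors, by 1.39 with shAKR1B1 and 1.00 with shSORD. HIF1A, which encodes the oxygen-regulated subunit of HIF-1, and MYC, both named here after their values were seen, fell in both knockdowns. HIF1A was at -0.28 with shAKR1B1 (adjusted p = 0.00122) and -0.61 with shSORD (adjusted p = 9.95e-07), and MYC at -0.62 with shAKR1B1 (adjusted p = 2.97e-07) and -0.68 with shSORD (adjusted p = 1.6e-07).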

How the data were processed

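RNA of 9 libraries (3 groups of 3) was sequenced with a stranded mRNA kit, per the labels' protocols. The deposited table holds the authors' raw counts of reads per Ensembl gene, with no normalization. The submitters' processing notes list GRCh37 as the build and, in no stated order, DESeq2 1.12.3, featureCounts 1.5.1 (Subread), STAR 2.5.2b and cutadapt 1.9.1. The sources used here do not give the annotation release, strand setting or handling of reads with several matches. All columns were mapped to samples by their titles (0 left over), and 51996 of 57905 IDs had a symbol.

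Counts were analysed with edgeR 4.0.16 in R 4.3.3 (limma 3.58.1): filterByExpr by group (minimum count 10, 16916 genes kept), TMM scaling, a quasi-likelihood fit of all 9 libraries with a group mean each and no block, and Benjamini-Hochberg adjustment over all tested genes. The standard error is the absolute log2 fold change over the square root of F, with a prior count of 0.125 in the fold changes. The common biological coefficient of variation was 6.59%. The script was tested on simulated data. P-values measure the spread between libraries, pooled over the groups, which may be technical. Fitted on only the 6 libraries compared, 11224 genes were called with shAKR1B1 and 8893 with shSORD, beside 9716 and 9565 in the fit of all 9. CPM per kb used the longest principal transcript of GENCODE 29, on another build than the counts. Exon overlaps with neighbouring genes were computed from its coordinates, which are not printed. The levels of a gene and its near-identical copies depend on how shared reads were counted. Isoform ratios had 0.5 added to each count, and 12 pairs were tested in 2 comparisons. Same-numbered libraries of shAKR1B1 and shSORD deviated weakly together from their group means (correlations 0.102, 0.193 and 0.144). The labels do not say that the numbers pair libraries, and whether they do was not tested. The calls reported come from the fit without a block, and those with a block are given as an alternative.

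The members, the gene lists and the tests were chosen with earlier results of these data known, so no list gives independent support. All 35 members are named. In each of 10 further lists the genes called in the same direction in both knockdowns are named, at most 3 per list, ranked by the smaller of their absolute log2 fold changes. TXNIP matched no single ID and was left out. Alternatives were RLE, upper quartile and total-count scaling, DESeq2 1.42.0, no filter, a filter of 50 counts in 3 libraries, only the 6 libraries compared, a replicate block, leaving out each library, and an offset of 5 for ratios.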

Additional observations from a re-analysis of the deposited data

Results flagged for a closer look

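For 3 genes the knockdowns were called in opposite directions against control, so a difference between the knockdowns, read from the same libraries, was nearly fixed by that choice and is given as a description. ENO3 was lower with shAKR1B1 than with shSORD by a log2 difference of -0.94, at 23.5 ± 0.592 CPM against 45.1 ± 3.28 CPM, with control at 37.7 ± 0.883 CPM (SD, n = 3 each). PDK3 was higher with shAKR1B1 than with shSORD, by 0.635, at 22.3 ± 1.45 CPM against 14.3 ± 0.642 CPM, with control at 18.0 ± 0.690 CPM. PDK4 was higher with shAKR1B1 by 0.81, at 112 ± 11.3 CPM against 63.9 ± 14.5 CPM, with control at 91.3 ± 3.21 CPM. In each gene all 3 shAKR1B1 libraries lay on 1 side of control and all 3 shSORD libraries on the other. The rise of PDK4 with shAKR1B1 was not called without shAKR1B1 replicate 1 or 2 or without any control library (adjusted p = 0.0726 to 0.179).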

How the results depend on the processing

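Counts of calls stayed within 1.5 times the reported ones in all settings, with the exception that the number of the 33 genes that rose with shAKR1B1 (5) was 3 without control replicate 1, and 3 to 5 over all single-library omissions. Omitting 1 library gave 16 to 19 lower genes with shAKR1B1, 4 to 5 higher and 20 to 23 lower with shSORD, and 9 to 15 higher and 7 to 9 lower between the knockdowns. All genes called between the knockdowns numbered 3828 to 6710 over these omissions, the largest without shSORD replicate 3. Single-gene values kept direction and side of the threshold in 1592 gene and setting combinations, lost the call in 82 and gained it in 27. In 12 the sign turned, none of them called: HK1 with shAKR1B1 (0.021 under upper quartile scaling, 0.005 under total counts, 0.001 with the stricter filter), PFKFB1 with shSORD (0.037 without shSORD replicate 1, range -0.337 to 0.037 over omissions), BPGM with shSORD (0.018, 0.011 and 0.010 under upper quartile scaling, total counts and without shSORD replicate 1, range -0.098 to 0.010), and between the knockdowns PFKL (-0.024 without shSORD replicate 3, range -0.024 to 0.117), BPGM (0.004 without shSORD replicate 3, range -0.104 to 0.004) and PKM (-0.007 under total counts, -0.034 without shAKR1B1 replicate 3, -0.031 without shSORD replicate 1, range -0.034 to 0.056). The cause was not tested. Besides omissions of a library, upper quartile scaling ended the calls of PFKL, GAPDH and G6PC3 with shAKR1B1 and of PFKFB4, ENO2 and PDP1 with shSORD, and gave PDK2 a call with shSORD (0.20, adjusted p = 0.0309). Total counts and the stricter filter each did the same for all of these but PFKL. RLE scaling ended GAPDH and PDP1, DESeq2 ended GAPDH, PFKFB4 and PDP1, the 6 libraries alone ended ENO2 and PDP1 with shSORD, and no filter ended PFKFB4 and ENO2 and gave PGK1 a call with shSORD (adjusted p = 0.0405). With no filter PKLR was tested too, at its low counts, and was called higher with shAKR1B1 than in control cells and than with shSORD. Genes of the list called higher then numbered 6 and 12, beside 5 and 11 in the reported fit. Between the knockdowns, G6PC3 lost its call under upper quartile scaling (0.0687), total counts (0.0841), no filter (0.068) and the stricter filter (0.0559), and LDHB with only the 6 libraries (0.0537). PC gained one under upper quartile scaling (0.0417), total counts (0.0353), DESeq2 (0.0485), no filter (0.0296) and the stricter filter (0.0415), and GPI with no filter (0.0466). Isoform ratios kept their direction in every setting tried.

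With the replicate number as a block, 9994, 9817 and 5643 genes were called with shAKR1B1, with shSORD and between the knockdowns, beside 9716, 9565 and 5186 without it. Members higher and lower came to 5 and 19, 4 and 24, and 12 and 9 with the block. For the knockdowns alone, a block over their 6 libraries, added after seeing the data, gave 5723 genes, 11 higher and 9 lower. Beside the calls between the knockdowns given above, the block added PGK1 with shSORD (-0.129, adjusted p = 0.0397). G6PC3 between the knockdowns was lost with only the 6 libraries, without a block (adjusted p = 0.0944) and with it (0.0505). Deviations from the group means in knockdown and control libraries of the same number had correlations of -0.028 to 0.031. Whether the numbers pair these libraries was not tested. Depth limits HK2, PFKFB1, PKLR and FBP1, whose counts are low.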
